A study of Arabidopsis thaliana with 11 samples.

Results

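The loci described here were scarce in the flower buds of wild-type Arabidopsis thaliana and had no read pair in 4 leaf libraries. A locus was a member if it stood at 1 to 5 CPM (read pairs per 1000000 counted pairs of its library, with no other scaling) in the HiSeq runs of both flower bud 1 and flower bud 2, and had 0 pairs in the HiSeq runs of leaf 1a and leaf 2 and in the GA II runs of leaf 3 and leaf 4. The rule was met by 166 of 28094 loci. The members were chosen by these measured values, so the levels in those 6 libraries are a description and carry no test.

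A flower bud packs many cell types into a small organ. Sperm cells and their precursors, the tapetum that feeds pollen, ovules with their embryo sacs, and the thin bands of cells that divide one whorl from the next each make up a small part of the tissue. A transcript confined to such cells is diluted in RNA of the whole bud, and so is a transcript made at a low rate in all of them. In bulk RNA, fewer cells of a type and less RNA per cell cannot be told apart.

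Flower buds gave 2 samples and leaves gave 4, all wild type, grown in greenhouse soil with no treatment and harvested at growth stage 6.0, when the first flower opens. PolyA-selected RNA was sequenced in 11 libraries. Deep HiSeq runs of 182707504 to 192817049 counted pairs were made of both flower buds and of leaf 1 and 2. The same samples also had shallower multiplex runs, leaf 1 in the technical replicates 1a and 1b. The 5 multiplex and 2 GA II libraries held 34405145 to 41105722 pairs. Nothing in the labels ties a numbered sample to plants of its own, so p-values measure a spread between samples that may be technical. All 5 of the matched genes that mark flower organs stood above 5 CPM in both buds, and their summed level was 1152 and 898 CPM in the buds against 1.08 to 1.47 CPM in leaves. The 7 leaf marker genes, of photosynthesis and photorespiration, summed to 11915 and 15157 CPM in buds and to 31586 to 56103 CPM in leaves, so buds held photosynthetic transcripts too.

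Of all loci, 2563 stood at 1 to 5 CPM in both flower bud HiSeq runs, while 7849 were under 1 CPM in both and 15985 were over 5 CPM in both. Most of the 2563 had leaf pairs. Summed over the 4 leaf libraries, 1072 of them had 101 to 1000 pairs and 799 had more than 1000, while 55 had 1 pair, 29 had 2 and 25 had 3. The members were 6.48% of the 2563. Read from the other side, they were 4.27% of the 3888 loci with no pair in the 4 leaf libraries, of which 3422 were under 1 CPM in both buds.

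**Figure D1:**
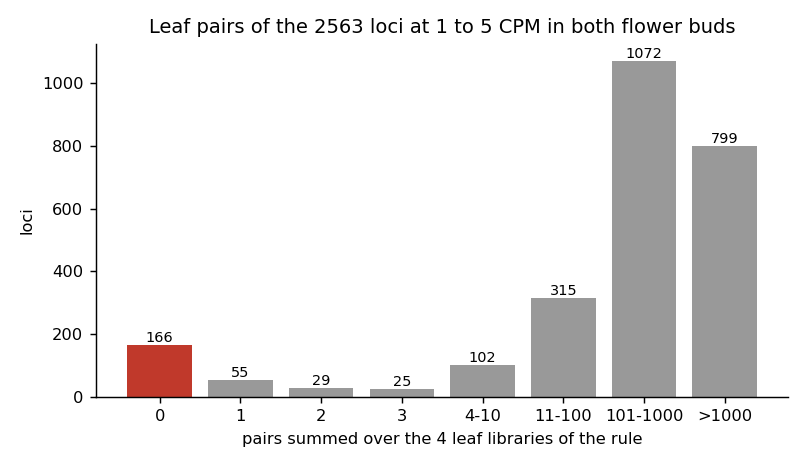
Number of loci (vertical axis) among the 2563 at 1 to 5 CPM in both flower bud HiSeq runs, by pairs summed over the HiSeq runs of leaf 1a and 2 and the GA II runs of leaf 3 and 4 (horizontal axis, bins). The red bar is the 166 members with 0 pairs, next to 55 loci with 1 pair, and the highest bar is the 1072 loci with 101 to 1000 pairs.

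The leaf libraries differed in what they left at 0, though the GA II and HiSeq libraries differ in sample and sequencer as well as depth, which cannot be told apart. With the GA II libraries alone, 310 of the 2563 loci had 0 leaf pairs, and 144 of these had at least 1 pair in a leaf HiSeq run. With the leaf HiSeq runs alone, 216 had 0 pairs, and 50 of these had at least 1 pair in a GA II library. A count of 0 allows up to 3 pairs, which over the 453617438 pairs of the 4 leaf libraries is 0.00661 CPM. Against that floor the members' mean bud level was at least 165-fold to at least 753-fold higher, as the rule fixed. Single reads without a counted pair were found at 1 member in the leaf 1a HiSeq run, with 1 read, and at 2 members in that of leaf 2, with 3 reads.

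On the bud side the rule itself sets what shallower runs can hold, since a locus at 1 CPM or more in a sample should also give pairs in its shallower run, so the counts that follow are a description. In the multiplex runs, which the rule did not use but which hold RNA of the same samples, every one of the 166 members had at least 33 pairs in flower bud 1 and at least 21 in flower bud 2. Of the 166 members, 160 had 30 or more pairs in both runs, and 148 again stood at 1 to 5 CPM in both. The summed level of the members was 445 CPM in the HiSeq run and 453 CPM in the multiplex run of flower bud 1, and 322 and 316 CPM in those of flower bud 2.

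The leaf multiplex runs held 32 pairs at members among 115760783 in all. Leaf 1a had 5, leaf 1b had 16 and leaf 2 had 11. These fell on 26 members, of which 20 had 1 pair in all and 6 had 2, and 140 members again had none. Of the 140, the mean bud level in the multiplex runs was at least 33.4-fold to at least 211-fold higher than the floor of 3 pairs over the 3 leaf runs, which is 0.0259 CPM. Where leaf pairs were present the ratio was wide in its counting error. AT2G22941, a defensin-like peptide gene with 56 and 32 bud pairs and 2 pairs in leaf 2, had a bud to leaf ratio of 72.6 (exact 95% interval 19.5 to 609).

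By edgeR's quasi-likelihood test on the multiplex runs, with leaf 1a and 1b summed, all 166 members were tested and called higher in flower buds, against 26.2% of 21902 loci called higher. Nothing is read from that count, since a member could pass the filter on low counts only through the buds in which it was chosen. The largest adjusted p of a member was 0.00598, at AT2G22941. Over all loci tested, 5733 were higher and 3732 lower in buds, or 8207 and 2368 with library size as the only scaling, which shifts every log2 fold change up by 0.56. Without flower bud 1, 158 of the members were called.

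Within the range that the rule allows, members lay low. Their median level was 2.54 CPM in flower bud 1 and 1.65 CPM in flower bud 2. The mean of both HiSeq runs was under 2 CPM for 72 members, 2 to 3 CPM for 61 and 3 CPM or more for 33. The highest mean was that of AT4G30030, an aspartyl protease gene, at 4.99 and 4.97 CPM in the HiSeq runs of flower bud 1 and 2 and at 5.42 and 5.52 CPM in the multiplex runs. Of the 166 members, 162 were protein coding and 4 were transcribed pseudogenes, and 125 had no name beyond a locus identifier. They were spread over the chromosomes, with 33, 38, 35, 25 and 35 on chromosomes 1 to 5.

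**Figure D2:**
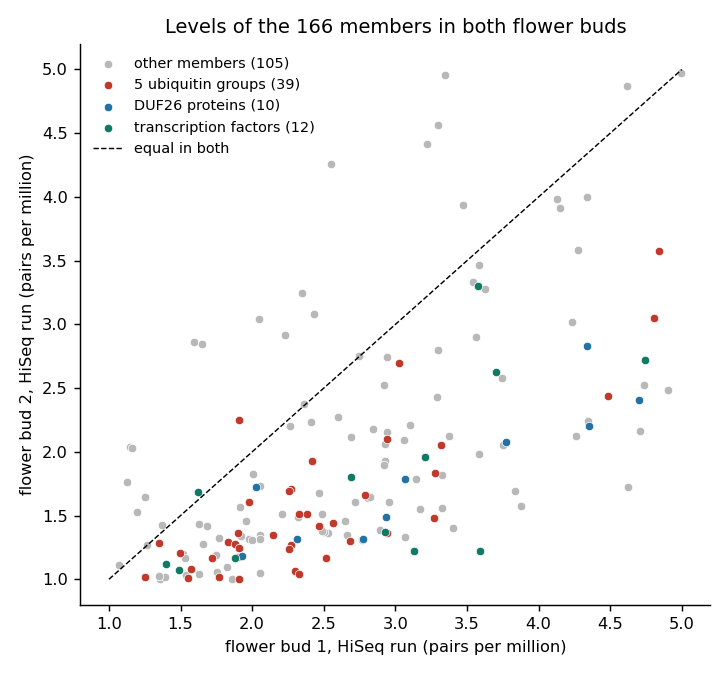
Each point is a member, with its level in the HiSeq run of flower bud 1 (horizontal axis, CPM) and of flower bud 2 (vertical axis, CPM), coloured by gene group. Points below the dashed line of equal level were higher in flower bud 1, as were 142 of the 166 members.

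Per length the order differed. Divided by the deposited length in kilobases, the members' mean HiSeq level ran from 0.554 to 17.5 CPM per kilobase, with a median of 2.07. The highest was AT1G57550, a short gene of the family of low temperature and salt responsive membrane proteins, at 17.5. Next came AT2G43386, an uncharacterized gene, and the unnamed locus AT4G09987, both at 13.1. SCRL23 followed at 11.1 and SCRL27 at 9.66, both small peptide genes described further on.

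Genes counted as transcription factors by product text and domain notes made up 12 of the members, or 7.23%. That compares with 3.61% of annotated loci of the same bud range with leaf pairs and 2.68% of all annotated loci, and was not tested. Not counted were AT1G11510, a transcriptional regulator by its product, and AT2G29880, a Myb/SANT-like DNA-binding gene, both named after their values were seen. SUP, DOT5, PRS, PFS2 and APRR4 are outside the rule by which genes were picked for naming and are given because their roles are known. They were chosen after their values were seen, as were GA3OX3, CYP735A1, DRM1 and the other genes marked so further on. In the HiSeq runs the 12 stood at 1.4 to 4.75 CPM in flower bud 1 and at 1.07 to 3.30 CPM in flower bud 2.

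DAZ1 and DAZ2 encode zinc finger repressors that act after DUO1 in the male germline, where the generative cell divides to form sperm. DAZ1 stood at 1.4 CPM in flower bud 1 and 1.12 CPM in flower bud 2 in the HiSeq runs, and at 1.45 and 1.37 CPM in the multiplex runs. Its level was close in all 4 bud libraries, and it had no pair in any of the 7 leaf libraries. DAZ2 was at 1.88 and 1.16 CPM in the HiSeq runs and at 2.1 and 0.814 CPM in the multiplex runs. Flower bud 1 was the higher in both run types, with a multiplex ratio of 2.58 (exact 95% counting interval 1.65 to 4.1). DUO1 itself, their activator, stood at 1.57 and 1.01 CPM and missed the rule by a single leaf pair.

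Boundary and organ regulators formed the next group. SUP, which keeps stamen fate out of the central whorl, was at 3.70 and 2.62 CPM in the HiSeq runs of flower bud 1 and 2 and at 3.91 and 3.17 CPM in the multiplex runs, a HiSeq mean of 3.16 ± 0.76 CPM (SD, n = 2). PRS, a WOX homeobox gene that acts at the margins of sepals, was at 2.93 and 1.37 CPM in the HiSeq runs and 2.60 and 1.45 CPM in the multiplex runs. PFS2, a WOX gene of ovule patterning, was lower, at 1.49 and 1.07 CPM and at 1.45 and 0.872 CPM. All of these were higher in flower bud 1 than in flower bud 2 in both run types. DOT5, a zinc finger gene named for a vein pattern mutant, was level in both buds, at 1.62 and 1.68 CPM and at 1.54 and 1.71 CPM.

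HEC2 encodes a basic helix-loop-helix factor that acts with HEC1 and HEC3 in the transmitting tract and stigma of the carpel. It was at 3.59 CPM in flower bud 1 and 1.22 CPM in flower bud 2 in the HiSeq runs and at 3.66 and 1.6 CPM in the multiplex runs. Flower bud 1 was higher in both run types, and the multiplex ratio was 2.29 (1.66 to 3.20). Its relatives were no members. HEC1, at 2.98 and 2.13 CPM, had 85 leaf pairs, and HEC3 was above the range at 8.46 and 6.15 CPM.

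Among the other regulators, IAA33, of the Aux/IAA family of auxin response repressors, had the largest multiplex ratio of flower bud 1 to 2 of all members, 3.06 (2.12 to 4.50). Its levels were 3.13 and 1.22 CPM in the HiSeq runs and 3.47 and 1.13 CPM in the multiplex runs. BBX9, a B-box zinc finger gene, was the highest regulator, at 4.75 and 2.72 CPM and at 5.17 and 2.59 CPM. A second B-box gene, bbx23, was at 3.21 and 1.96 CPM and at 2.54 and 1.95 CPM. ERF110, of the ethylene response factor family, was higher in flower bud 1 by 1 run type and in flower bud 2 by the other, with 3.58 and 3.30 CPM in the HiSeq runs and 2.68 and 3.49 CPM in the multiplex runs. APRR4, a pseudo-response regulator, was at 2.69 and 1.80 CPM and at 2.82 and 2.41 CPM.

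**Figure D3:**
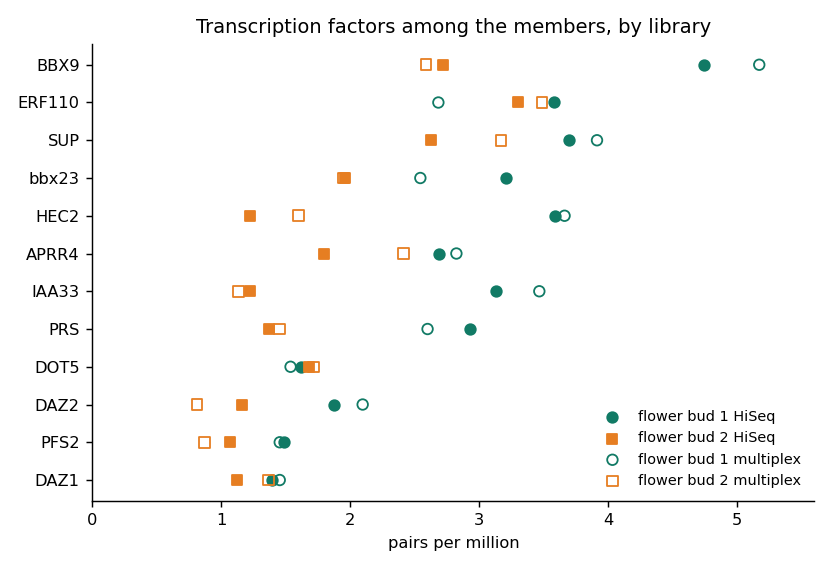
Level (horizontal axis, CPM) of the 12 transcription factor members in the HiSeq runs (filled) and multiplex runs (open) of flower bud 1 (circles) and flower bud 2 (squares). BBX9 was the highest and DAZ1 the lowest by HiSeq mean, and HEC2 and IAA33 had the largest HiSeq ratios between the buds, 2.93 and 2.57.

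Proteins of the ubiquitin system were the most frequent group. In this system an E3 ligase joins ubiquitin to a chosen protein, often marking it for breakdown by the proteasome. In SCF ligases an F-box protein picks the target and an SKP1-like protein holds it to the core, RING proteins serve as ligases of other kinds, and ubiquitin hydrolases take the tag off. MATH domain proteins are counted here because some of them join targets to ligases. The groups were formed from RefSeq products and domain notes after the members had been seen, and the differences in share were not tested. Together the 5 groups held 39 of 166 members, or 23.5%, against 7.17% of the 2357 annotated loci of the same bud range with leaf pairs and 6.37% of 27320 annotated loci.

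The share depended on the level at which the range was set, since these genes lay low in it, with a median HiSeq mean of 1.84 CPM. With bounds of 2 to 5 CPM it was 10.7%, against 6.38% of loci with leaf pairs. With TMM factors, which lower the bud values, it was 13.2% against 6.60%. With bounds of 1 to 10 CPM it was 15.9% against 6.30%, and with bounds of 0.5 to 5 CPM it was 26.4% against 7.72%.

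F-box proteins, with the FBD and DUF295 relatives, were 17 members or 10.2%, against 3.18% of the loci with leaf pairs. The highest was AT4G13960, at 4.81 and 3.05 CPM in the HiSeq runs and at 5.0 and 3.31 CPM in the multiplex runs. AT1G20790, chosen after its values were seen, was the only member of the 5 groups that was lower in flower bud 1 in the HiSeq runs, at 1.90 and 2.25 CPM. TLP4, a tubby-like protein with an F-box that was also chosen after its values were seen, was at 1.58 and 1.08 CPM. SKP1-like genes were 2 members. SK5 was at 2.33 and 1.04 CPM in the HiSeq runs and 2.46 and 1.02 CPM in the multiplex runs, and SK12 was at 1.55 and 1.01 CPM and at 1.76 and 0.785 CPM. Both were higher in flower bud 1, with multiplex ratios of 2.42 (1.62 to 3.69) and 2.24 (1.41 to 3.67).

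RING proteins were 8 members or 4.82%, against 2.67% of loci with leaf pairs. They included ARI10, ARI9 and ARI11, neighbouring genes on chromosome 2 for ligases of the ARIADNE type, which pair RING domains with a domain between them. ARI9 was at 3.28 and 1.83 CPM in the HiSeq runs of flower bud 1 and 2, ARI10 at 2.15 and 1.35 CPM and ARI11 at 1.98 and 1.61 CPM. In the multiplex runs ARI9 was at 3.44 and 2.03 CPM, ARI10 at 2.21 and 1.25 CPM and ARI11 at 2.21 and 1.74 CPM. All were higher in flower bud 1, and all had no pair in any leaf library. AT2G38920, which has a RING and an SPX domain, had the largest ratio of the group, 2.55 (1.85 to 3.55), at 4.00 and 1.57 CPM in the multiplex runs.

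MATH domain proteins were 6 members or 3.61%, against 0.339% of loci with leaf pairs. The highest was AT3G58340, at 4.84 and 3.58 CPM in the HiSeq runs and 4.78 and 2.82 CPM in the multiplex runs. Of the 6, AT3G58260 and AT3G58280 lay 2 loci apart, as did AT3G58340 and AT3G58360. Ubiquitin-like, ubiquitin-associated and ubiquitin hydrolase proteins were 6 members, with AT1G65140, a hydrolase gene, highest at 4.49 and 2.44 CPM in the HiSeq runs. AT4G05230, a ubiquitin-like gene, was at 1.77 and 1.02 CPM in the HiSeq runs and at 1.34 CPM in both multiplex runs.

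**Figure D4:**
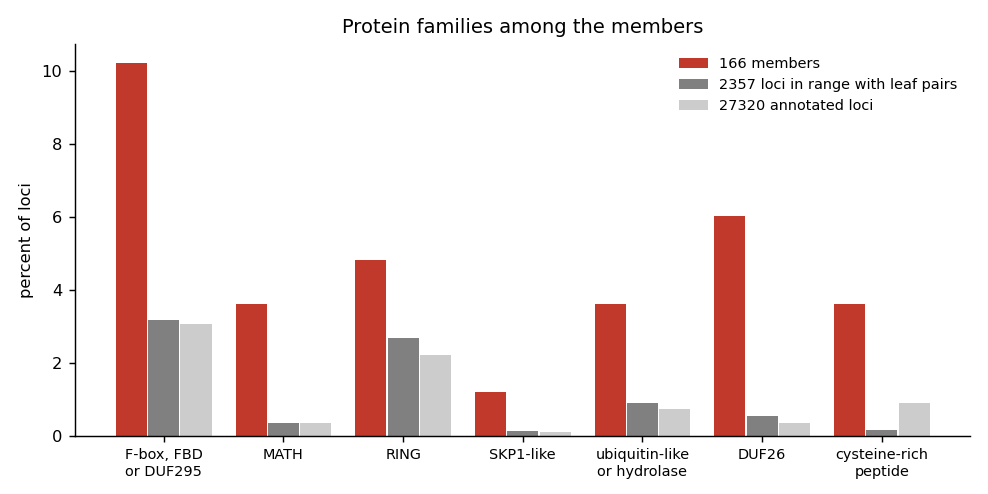
Percent of loci (vertical axis) in 7 protein families among the 166 members (red), the 2357 annotated loci at 1 to 5 CPM in both buds with leaf pairs (dark grey) and all 27320 annotated loci (light grey). F-box proteins were 10.2% of members and DUF26 proteins 6.02%, against 3.18% and 0.552% of the loci with leaf pairs.

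DUF26 proteins carry a repeat of conserved cysteines outside the cell, either alone as secreted proteins or in front of a receptor-like kinase. They were 10 members or 6.02%, against 0.552% of the loci with leaf pairs and 0.355% of all annotated loci. The 10 include AT4G20580, AT4G20620 and AT4G20640, which match AT4G20645 at 100% identity and may not be separate counts. The most abundant per length was AT3G21980, at 4.35 and 2.20 CPM in the HiSeq runs and at 4.53 and 2.30 CPM in the multiplex runs. AT3G21945 was at 4.33 and 2.83 CPM and at 3.89 and 2.73 CPM. All 10 were higher in flower bud 1 in both run types, with multiplex ratios of 1.21 to 2.42. None had a pair in a leaf multiplex run.

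Of the 10 genes, 9 lay in 2 stretches of the genome. On chromosome 3, from AT3G21900 to AT3G22020, 6 of 18 neighbouring loci were members and 9 of the others also had no pair in the 4 leaf libraries. The neighbours differed from the members in bud level rather than in leaf pairs, with AT3G21990 at 49.4 and 27.5 CPM and AT3G21970 at 46.9 and 21.7 CPM in the HiSeq runs of flower bud 1 and 2. AT3G21937 was nearly silent, at 0.0219 and 0.00547 CPM. These neighbours were named after their values were seen. AT3G21960 and AT3G21985 had 1 leaf pair each, and AT3G21950, at 1.11 and 1.07 CPM in buds, had 1729.

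On chromosome 4, from AT4G20580 to AT4G20650, 4 of 8 neighbouring loci were members and the remaining 4 had no leaf pair and stood above the range in flower bud 1. AT4G20580 was at 4.70 and 2.41 CPM in the HiSeq runs, AT4G20640 at 3.77 and 2.08 CPM and AT4G20650 at 3.07 and 1.79 CPM. Each was higher in flower bud 1. AT4G20580, AT4G20620 and AT4G20640 match AT4G20645 over their whole length at 100% identity, so their shares of the reads are uncertain. RKF2, a receptor-like kinase with a DUF26 region, lay elsewhere, at 2.03 and 1.72 CPM in the HiSeq runs and 1.87 and 1.51 CPM in the multiplex runs.

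Small cysteine-rich peptides, secreted signals and defensin relatives, were 6 members or 3.61%, against 0.170% of the loci with leaf pairs and 0.908% of all annotated loci. SCRL23 and SCRL27 resemble SCR, the pollen coat ligand of self-incompatibility in Brassicaceae. SCRL23 was at 4.26 and 2.13 CPM in the HiSeq runs and at 4.53 and 2.18 CPM in the multiplex runs, and SCRL27 was at 3.88 and 1.57 CPM and at 3.33 and 1.86 CPM. RALFL11, of the family of rapid alkalinization factors, was closer between the buds, at 2.06 and 1.73 CPM and at 2.43 and 1.48 CPM. AT1G51915, a cryptdin-like gene chosen after its values were seen, was at 2.90 and 1.38 CPM and at 3.35 and 1.57 CPM. All 6 peptide genes were higher in flower bud 1 in both run types. SCRL23 and AT2G22941 overlap another annotated gene, and the use of strand in counting is not given in the sources used here.

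Genes of hormone synthesis, chosen after their values were seen, included GA3OX3 and CYP735A1. GA3OX3, which makes bioactive gibberellin, was at 3.14 and 1.79 CPM in the HiSeq runs and at 3.33 and 1.63 CPM in the multiplex runs. CYP735A1, which makes trans-zeatin type cytokinins, was even, at 2.75 CPM in both HiSeq runs and 2.40 and 2.47 CPM in the multiplex runs. DRM1, a methyltransferase related to the main enzyme of de novo DNA methylation, was at 2.05 and 1.32 CPM and at 1.96 and 1.08 CPM.

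Kinases and transporters had 6 members each, or 3.61%, against 4.37% and 0.679% of the loci with leaf pairs, which was not tested. They held the 3 members with the lowest multiplex ratio of flower bud 1 to 2. CDG1, a receptor-like cytoplasmic kinase of brassinosteroid signalling, was at 1.65 and 2.85 CPM in the HiSeq runs and 1.62 and 3.02 CPM in the multiplex runs, a multiplex ratio of 0.536 (0.382 to 0.747). CHX6B, a cation/proton exchanger, was at 1.59 and 2.86 CPM and at 1.54 and 2.62 CPM, a ratio of 0.588 (0.412 to 0.831). AT2G17000, a mechanosensitive channel gene, had the lowest ratio of all members, 0.532 (0.356 to 0.785). In the opposite direction AT1G20925, an auxin efflux carrier family gene, was at 3.17 and 1.55 CPM and at 3.35 and 1.25 CPM, a ratio of 2.68 (1.88 to 3.90). TPK4, a potassium channel gene, was even, at 3.58 and 3.47 CPM and at 4.11 and 3.87 CPM. AT2G17170, a kinase gene next to DAZ1, was at 3.07 and 1.33 CPM and at 3.16 and 1.51 CPM.

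Cell wall and lipid genes numbered 7 and 6, or 4.22% and 3.61%. Of the loci with leaf pairs they were 0.933% and 0.297%, and the differences were not tested. AT2G34700, of the pollen Ole e 1 allergen and extensin family, was at 4.24 and 3.02 CPM in the HiSeq runs and 4.03 and 2.44 CPM in the multiplex runs. AT5G03600, an esterase gene of the SGNH hydrolase type, was among the highest members, at 4.62 and 4.87 CPM and at 4.61 and 5.41 CPM. ACP5, an acyl carrier protein of fatty acid synthesis, was at 3.06 and 2.09 CPM and at 3.75 and 1.83 CPM. CYP86C1, of a family of fatty acid hydroxylases, was at 3.63 and 3.28 CPM and at 4.84 and 3.08 CPM. AT1G71690 and AT1G71691, a glucuronoxylan methyltransferase-like gene and its GDSL lipase neighbour, overlap each other on opposite strands, and both were higher in flower bud 2, at 1.15 and 2.04 CPM and at 1.13 and 1.76 CPM.

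Of 234 entries matched to loci in 8 lists of bud cell types and programmes, 3 were members, namely DAZ1, DAZ2 and HEC2. That is 1.28%, against 0.591% of all 28094 loci, and the difference was not tested. Of 12 male germline genes, 2 were members, 3 were in the bud range with leaf pairs, 6 were above 5 CPM in at least 1 bud and 1 was below 1 CPM in at least 1 bud, as these terms are used for all lists. Of 30 genes of the egg cell, synergids and central cell, 0 were members and 23 were below 1 CPM. EC1.1, a secreted peptide gene of the egg cell, was at 0.153 and 0.0766 CPM with no leaf pair, and MYB98, a synergid regulator, was at 1.81 and 1.56 CPM with 57 leaf pairs. Of 23 meiosis genes, 11 were above 5 CPM and 11 were in the bud range with leaf pairs. Entries were matched by symbol or synonym, which can name a different gene. HOP2 in the meiosis list and ZAR1 in the egg cell list may be such cases, with 24648 and 113145 leaf pairs. Both remain in the counts given here. Of 24 genes of the anther, tapetum and pollen wall and of 44 of pollen, 22 and 36 were above 5 CPM and 0 were members. Of 30 ovule and carpel genes, 20 were above 5 CPM and HEC2 was the 1 member. Of 29 meristem and boundary genes and of 42 signalling peptide genes, 8 and 6 had no leaf pair and 0 were members. SUP, PRS and PFS2, members described above, were in none of the lists, so these counts cover the listed genes alone.

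Seed and root genes were examined because young fruits or other tissue could be in a sample. Of 26 embryo, endosperm and seed store genes, 21 were below 1 CPM, 2 were in the bud range with leaf pairs, 2 were above 5 CPM and 1 was a member. The member was SESA4, a seed storage albumin gene, at 1.35 and 1.03 CPM in the HiSeq runs and 1.59 and 0.698 CPM in the multiplex runs. The other 4 albumin genes SESA1, SESA2, SESA3 and SESA5 were at 0 to 0.0711 CPM in the buds. Of the genes above 1 CPM in both buds, named after their values were seen, the oleosin genes OLEO3 and OLEO4 were at 3.29 and 2.99 CPM and at 7.09 and 10.1 CPM. FUS3 and AGL15, regulators of embryo development, were at 2.85 and 3.19 CPM and at 11.6 and 7.87 CPM. These genes were not confined to buds. Over the 4 leaf libraries OLEO3 had 8 pairs, OLEO4 had 149 and AGL15 had 37. FUS3 had 1135, of which 949 were in the HiSeq run of leaf 2. Of 15 root genes, leaving out GLT1, which matched a glutamate synthase gene, 12 were below 1 CPM, 3 were above 5 CPM and 0 were members. Those above were IRT1, an iron transporter gene, at 10.8 and 11.4 CPM with no leaf pair, COBL9 at 5.50 and 8.25 CPM and SHR at 26 and 27.5 CPM. COBL9 had 12 leaf pairs and SHR had 4768. LFY, the regulator of floral meristem identity, was at 3.34 and 3.58 CPM and missed the rule by a single leaf pair, as did CLE19, a signalling peptide gene, at 1.74 and 1.11 CPM.

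RefSeq notes name plant structures in which a transcript had been detected for 43 of 166 members. Of these, 19 named sperm cells, the male gametophyte or the pollen tube, or 44.2%, against 32.5% of 338 loci in the bud range with leaf pairs. Petal or sepal was named for 19, or 44.2%, against 13.9%. Root was named for 3, or 6.98%, against 29.9%. For 105 members, or 63.3%, the notes named no structure, against 57.9% of loci with leaf pairs. For 18 members, or 10.8%, they gave only a number of structures, against 27.7%. Such loci are outside the shares of named structures above. The notes placed 38 members, or 22.9%, in the endomembrane system, against 13.9%. Members were short, with a median deposited length of 1071 bases and a median of 2 exons, against 1242 bases and 3 exons for the loci with leaf pairs. These shares were not tested.

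The flower bud samples were unequal in these genes. In the multiplex runs flower bud 1 was higher than flower bud 2 for 136 of 166 members, or 81.9%, against 61.3% of 2518 loci at 1 to 5 CPM in both multiplex runs. The members' median ratio was 1.54, against 1.12 for those loci. By more than 2-fold, 36 members were higher in flower bud 1, or 21.7%, against 6.31%, and 0 were higher in flower bud 2, against 4.01%. In the HiSeq runs 142 members, or 85.5%, were higher in flower bud 1, against 61.7% of 2397 loci in the bud range with leaf pairs. Of the 166, 134 were higher in flower bud 1 in both run types and 22 were lower in both. The exact counting interval of the multiplex ratio lay above 1 for 99 members and below 1 for 9. The counts over both run types and of intervals were made for members alone, so they have no background share and nothing is read from them. Each bud is 1 sample, so the difference between the buds has no replicate check and no test.

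Group values of the ratio are a description too. In the 5 ubiquitin groups 37 of 39 members were higher in flower bud 1 in the multiplex runs, with a median ratio of 1.68, and DUF26 proteins had a median of 1.85. Members of no counted family had a median of 1.51, and that of all members was 1.54. Kinases and transporters had medians of 1.26 and 1.07. Lists of other bud programmes give a setting for these values. In the HiSeq runs the median ratio of flower bud 1 to 2 was 1.1 over the loci in the bud range with leaf pairs, of which 61.7% were higher in flower bud 1. Over list genes at 1 CPM or more it was 1.43 for signalling peptides, with 14 of 19 higher in flower bud 1, and 1.4 for ovule and carpel genes, with 18 of 25. It was 1.3 for anther and tapetum genes, with 19 of 23, and 1.22 for meiosis genes, HOP2 included, with 16 of 22. Meristem and boundary genes had a median of 0.987, with 10 of 20 higher in flower bud 1, pollen genes had 0.949, with 16 of 39, and leaf genes had 0.697, with 2 of 7. Every one of these lists held genes on both sides. In the male germline list, which holds DAZ1 and DAZ2, the median was 1.24 and all 11 genes were higher in flower bud 1. Genes of the egg cell, synergids and central cell, ZAR1 included, had a median of 1.16, with 4 of 7. The 4 root genes at 1 CPM or more, GLT1 included, were all lower in flower bud 1. The part of any list in the tilt of the members was not tested.

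**Figure D5:**
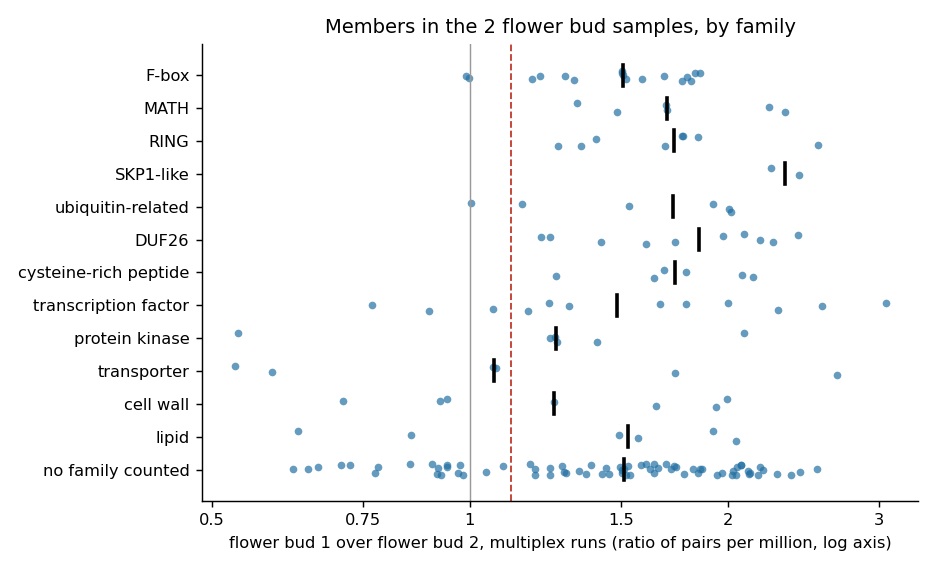
Each point is a member, placed by its ratio of flower bud 1 to flower bud 2 in the multiplex runs (horizontal axis, log scale) and by gene group (vertical axis, points spread for view). Black ticks are group medians and the grey line is a ratio of 1. The dashed red line is the median of 1.12 of loci in the bud range with leaf pairs. All group medians shown exceed it except that of transporters, at 1.07.

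Some members lay in runs of neighbours. Counting loci no more than 5 apart, 27 members fell in 10 runs, and 13 had a member as the next locus. Besides the ARIADNE, MATH and DUF26 genes, APRR4 lay near the uncharacterized AT5G49260, and AT5G55880 lay next to AT5G55890. The last pair, DUF295 genes at 1.90 and 1.36 CPM and at 2.25 and 1.70 CPM in the HiSeq runs, are 100% identical to each other and uncertain as separate genes. In all, 5 members had a near copy and 21 overlapped another annotated gene, 19 of them on the opposite strand. The values of those named here, BBX9, AT4G13960, AT1G20925, ACP5, CYP86C1, SCRL23, AT2G22941, AT1G71300, AT1G71690 and AT1G71691, are uncertain for that reason. Of the 140 members with neither, 35 were in the ubiquitin groups and 112 were higher in flower bud 1 in the multiplex runs.

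The bounds of the rule cut through a continuous spread. Just inside the lower bound were AT1G71300, a Vps52/Sac2 family gene, at 1.36 and 1.00 CPM, the RING gene AT2G16520 at 1.90 and 1.00 CPM and the uncharacterized AT4G12930 at 1.86 and 1.01 CPM. Just outside it were AT4G26280 at 1.46 and 0.984 CPM, AT5G48270 at 1.09 and 0.979 CPM and AT2G32360 at 1.57 and 0.957 CPM. Inside the upper bound, after AT4G30030, were AT4G39130, a dehydrin gene, at 3.34 and 4.96 CPM and ISU3, a scaffold protein of iron-sulfur cluster assembly, at 4.90 and 2.49 CPM. Outside it were AT5G11120 at 5.10 and 2.73 CPM, AT4G20680 at 5.10 and 3.25 CPM and AT2G29040 at 5.11 and 5.02 CPM. With 1 leaf pair, the calcium-dependent kinase gene CPK20, AT5G16100 and EDA31 were left out at 4.83 and 4.63 CPM, 4.69 and 4.71 CPM and 4.29 and 4.63 CPM.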

How the data were processed

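The deposited values are raw counts per locus and library, which per the file headers cover proper pairs, single reads and pairs inside an insert limit. Bowtie2 2.0 is named in the submitters' processing notes. Not given in the sources used here are the genome build, the annotation, strand use and the handling of reads with several matches, so no coordinates or sequences are printed, and near-identical or overlapping loci are uncertain. That limit, which the rule does not use, was 1000 for the leaf 1a HiSeq run and 500 for the rest.

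CPM were pairs divided by the library's total. TAIR10.1 RefSeq tables gave names, products, notes and neighbour order for 27320 of 28094 loci, including all 166 members. Near copies were found with blastn 2.17.0 at 95% identity over 80% of the length. The deposited length equals that of a RefSeq transcript for 63 of the 166 members and for 6234 of the 27320 loci. Buds and leaves were compared in the multiplex runs with edgeR 4.0.16 in R 4.3.3, by its quasi-likelihood test after filterByExpr (minimum count 10) and TMM scaling, with p-values adjusted by Benjamini-Hochberg over all loci and called under 0.05. The code was tested on simulated counts. DESeq2 1.42.0 was an alternative. Intervals are exact at 95% and floors are 3 pairs. Both cover counting error alone, as pairs copied in PCR are not separate molecules.

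Members, gene lists, families and tests were chosen with earlier results of these data known. Genes were named from among the 10 highest per length, members in the lists and up to 4 of each family by level per length. Also drawn on were the 3 nearest each bound, the 3 highest and 3 lowest bud ratios and members next to each other. Not every gene that qualified was named, and others are marked as chosen after their values were seen.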

Additional observations from a re-analysis of the deposited data

Results flagged for a closer look

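The leaf multiplex runs, which the rule for members did not use, held pairs at members above the 3 pairs that a count of 0 allows. Leaf 1a held 5 pairs at 5 members, leaf 1b held 16 pairs at 15 members and leaf 2 held 11 pairs at 10 members. No member had more than 2 pairs in a run, and 4 members had pairs in more than 1 run. The 3 pairs are the limit for a count at a single locus, while these are sums over all members. The HiSeq runs of the same leaf samples had 0 pairs there because the rule required it. The source of the multiplex pairs was not tested.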

How the results depend on the processing

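The number of members was 166, and it was 295 with bounds of 0.5 to 5 CPM, 254 with 1 to 10 CPM, 56 with 2 to 5 CPM and 315 with up to 3 pairs allowed in every leaf library. It ranged from 181 to 258 when a leaf or bud sample was left out of the rule, with 258 without flower bud 2, and stayed within 1.5 times under the other 6 alternatives. The share in the 5 ubiquitin groups, an alternative set chosen after the data were seen, was 10.7% with bounds of 2 to 5 CPM. It was 15.9% with 1 to 10 CPM, 13.2% with TMM factors and from 17.0% to 24.8% with a sample left out. Members with a leaf multiplex pair numbered 26, or 0 at a minimum of 3 pairs, and 10 without leaf 1, 15 without leaf 1b and 20 without leaf 2. By the deposited count of single reads alone, 42 members had at least 1 in a leaf multiplex run. Members more than 2-fold higher in flower bud 1 numbered 36, or 24 with TMM factors and 93 at 1.5-fold. Flower bud 1 was the higher for 81.9% of members, and for 80% to 85.5% in the HiSeq runs, with TMM factors and without overlapping or near-identical loci.

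All 166 members were called higher in buds by DESeq2, with library size or upper quartile scaling, with no filter and with leaf 1a alone, against 26.9%, 37.5%, 29.8%, 24.1% and 26% of loci tested. The count was at its ceiling, since members were chosen high in these buds, and shows no stability. With a sample left out it was 158 to 166. With the replicate block it was 166, and loci called numbered 6170 higher and 4430 lower. The labels do not say that replicate numbers mark a shared source, and over loci the deviations of replicate 1 in buds and leaves correlated at 0.250. Without flower bud 1, 3006 loci were called higher and 1639 lower, against 5733 and 3732.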
